A study of Mus musculus with 18 samples.

Results

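Transcript levels of 10 genes of the hypoxia response were measured by RNA-seq in cell lines from mouse malignant peripheral nerve sheath tumors (MPNSTs), aggressive sarcomas of the peripheral nerve sheath. The 10 genes were taken by symbol from the 35275 genes of the count table and comprised the factor subunits *Hif1a*, *Epas1* and *Arnt*, the oxygen-sensing hydroxylases *Egln1*, *Egln2* and *Egln3*, the ubiquitin ligase component *Vhl*, and the target genes *Car9*, *Vegfa* and *Bnip3*. All 10 passed the filter on low counts. The tumors had been raised in wild-type 129 Sv/Jae mice by injecting the sciatic nerve with an adenovirus that carried Cas9 under a CMV promoter and guide RNAs, either against *Nf1* and p53 (*Nf1*/*p53* dKO, here the p53-deleted lines) or against *Nf1* and *Cdkn2a* (*Nf1*/*Cdkn2a* dKO, here the *Cdkn2a*-deleted lines). *Nf1* was thus targeted in both genotypes, and the animals' ages were not given in the sources used here. There were 3 lines of each genotype, every line from 1 tumor and passaged repeatedly, and 3 cultures of each line, which gave 18 libraries. The cells were grown in DMEM with serum and with no further treatment. No library came from cells placed in low oxygen according to the labels, and the oxygen level of the cultures was not given.

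In the hypoxia-inducible factors (HIFs), an oxygen-labile alpha subunit, HIF-1α from *Hif1a* or HIF-2α from *Epas1*, pairs with the stable beta subunit from *Arnt*. When oxygen is present, the prolyl hydroxylases of the *Egln* genes mark the alpha subunit, VHL binds the marked protein, and the proteasome removes it. When oxygen is scarce the alpha subunit escapes, enters the nucleus with ARNT and switches on genes for glycolysis, blood vessel growth, pH control and mitochondrial turnover. Because most of this control acts on protein, RNA levels report the amounts of message for the parts of the system and for its targets, and HIF protein was not measured in these libraries.

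Total counts were 21155232 to 28312207 per library in the p53-deleted lines and 19560535 to 26578049 in the *Cdkn2a*-deleted lines. Levels are counts scaled to the library size (CPM) after TMM normalization, and each line value is from the sum of its 3 cultures. Among the targeted genes, *Trp53* was at 58.7 to 94.1 CPM in the p53-deleted lines and at 185 to 247 CPM in the *Cdkn2a*-deleted lines. *Nf1* was at 27.7 to 70.0 CPM against 12.7 to 38.3 CPM, and *Cdkn2a* at 42.9 to 363 CPM against 169 to 392 CPM, so that the genotypes overlapped for both. A count per gene does not show whether the edited sequence is disrupted. The label gives the cells as mesenchymal, and all 9 mesenchymal markers examined were above 10 CPM in every line. The 8 Schwann lineage markers summed to 3.18 to 14.4 CPM in the p53-deleted lines and to 1.44 to 2.67 CPM in the *Cdkn2a*-deleted lines, and 6 of the 8 passed 1 CPM in any line. The 8 leukocyte markers summed to 3.74 to 7.59 and 6.58 to 8.13 CPM, and the 8 endothelial markers to 1.44 to 2.09 and 0.719 to 2.13 CPM, with 2 of 8 above 1 CPM in any line in each list. No marker was at 0 in all libraries, and the part of such transcripts in the results below was not tested. In bulk RNA, fewer cells that express a gene and less of its RNA per cell cannot be told apart.

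HIF binds DNA at short elements built on the core ACGTG or GCGTG. These 2 cores were searched on both strands in RefSeq promoter windows of GRCm38.p6, which run from 250 bases before to 50 bases after an annotated start. Of 32851 windows of the genome, 43.8% held either core, and of the 11 windows of the genes studied here, 9 did. The windows of 4 target genes are printed because their transcripts are the pathway's outputs in these libraries, with each core in capitals, read 5′ to 3′ on the gene's strand (CACGT and CACGC are the cores on the other strand).
Vegfa, first window (chr17:46032328-46032627, - strand): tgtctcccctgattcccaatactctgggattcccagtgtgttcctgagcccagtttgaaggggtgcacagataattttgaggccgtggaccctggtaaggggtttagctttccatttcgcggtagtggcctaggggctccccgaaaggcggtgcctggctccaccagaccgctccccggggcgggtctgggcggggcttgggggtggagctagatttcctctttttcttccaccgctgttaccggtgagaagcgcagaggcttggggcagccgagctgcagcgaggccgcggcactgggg
Vegfa, second window (chr17:46025114-46025413, - strand): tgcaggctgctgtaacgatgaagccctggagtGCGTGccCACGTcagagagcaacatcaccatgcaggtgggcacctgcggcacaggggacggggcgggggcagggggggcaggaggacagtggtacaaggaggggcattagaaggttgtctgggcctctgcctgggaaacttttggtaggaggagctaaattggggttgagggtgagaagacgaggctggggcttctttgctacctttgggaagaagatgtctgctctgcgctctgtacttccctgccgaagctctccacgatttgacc
Egln3 (chr12:54203825-54204124, - strand): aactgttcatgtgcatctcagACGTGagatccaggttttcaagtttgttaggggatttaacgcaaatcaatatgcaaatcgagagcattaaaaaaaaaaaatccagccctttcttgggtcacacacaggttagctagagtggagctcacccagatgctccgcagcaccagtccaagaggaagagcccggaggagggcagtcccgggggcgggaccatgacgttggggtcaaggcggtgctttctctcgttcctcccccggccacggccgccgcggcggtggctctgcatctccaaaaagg
Car9 (chr4:43506776-43507075, + strand): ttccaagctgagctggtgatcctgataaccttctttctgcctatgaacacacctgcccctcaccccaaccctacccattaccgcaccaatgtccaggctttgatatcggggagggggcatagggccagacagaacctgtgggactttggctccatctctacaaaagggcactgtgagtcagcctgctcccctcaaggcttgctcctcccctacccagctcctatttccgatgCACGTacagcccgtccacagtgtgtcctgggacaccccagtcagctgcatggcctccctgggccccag
Bnip3 (chr7:138909457-138909756, - strand): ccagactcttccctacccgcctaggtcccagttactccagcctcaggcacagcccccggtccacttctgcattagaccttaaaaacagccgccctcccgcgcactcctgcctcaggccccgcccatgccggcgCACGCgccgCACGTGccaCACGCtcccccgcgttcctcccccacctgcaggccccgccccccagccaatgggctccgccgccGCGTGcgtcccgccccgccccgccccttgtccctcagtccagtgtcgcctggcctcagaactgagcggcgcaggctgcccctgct
The *Bnip3* window held 5 matches, at −117, −108, −107, −99 and −35 bases from the start, of which those at −108 and −107 are overlapping readings of a single palindrome. The *Car9* and *Egln3* windows held 1 match each, at −18 and −229. The first *Vegfa* window held none, and the second, at an internal start, held 2 at −218 and −211; the element of *Vegfa* known from the literature lies farther upstream than either window reaches. *Egln2* had 2 windows with 6 and 1 matches, *Hif1a* had 3 matches, *Egln1* had 2, *Arnt* had 1 and *Vhl* had none. The *Egln2* matches at −4 and −3 are again overlapping readings of a single palindrome, as are the *Hif1a* matches at −135 and −134. These are matches of letters, and no binding was measured.

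Per kilobase of exon, which allows levels of different genes to be compared, the mean levels over the 6 lines were 29.4 CPM per kb for *Vegfa*, 28.7 for *Hif1a*, 21.9 for *Bnip3*, 20.2 for *Egln1* and 18.6 for *Egln2*. *Egln3* at 9.66, *Arnt* at 8.56 and *Vhl* at 7.73 CPM per kb followed, and *Epas1* at 1.62 and *Car9* at 0.659 were lowest. Thus *Hif1a* was the main alpha subunit message in every line, and carbonic anhydrase IX message was close to the lower end of what these libraries can count.

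**Figure D1:**
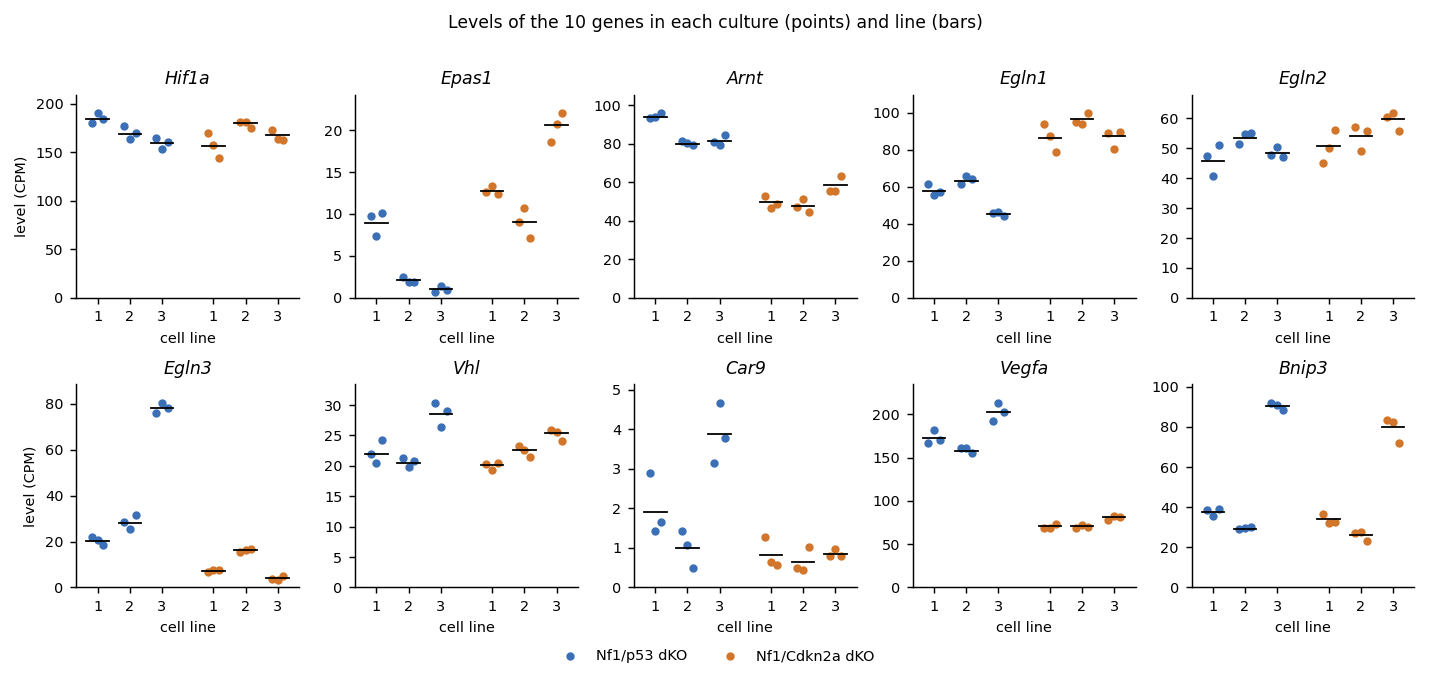
Level in CPM (y axes, each from 0) of the 10 genes in each culture (points) and each line (bars), with the 3 p53-deleted lines in blue and the 3 *Cdkn2a*-deleted lines in orange. *Arnt* and *Vegfa* are higher in every p53-deleted culture and *Egln1* in every *Cdkn2a*-deleted culture, while *Bnip3* is high in line 3 of both genotypes.

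The question for the genotype comparison was which parts of the pathway differ with the second deleted tumor suppressor, tested with edgeR's quasi-likelihood test on the 6 line sums and Benjamini-Hochberg adjustment over all 15207 genes tested. Of the 10 genes, 1 passed an adjusted P of 0.05, *Vegfa*, which was lower in the *Cdkn2a*-deleted lines. Over all genes 274 passed (1.80%), and 1.16% passed in the lower direction. The 3 lines of one genotype did not overlap those of the other for 6 of the 10 genes (*Epas1*, *Arnt*, *Egln1*, *Egln3*, *Car9* and *Vegfa*), against 31.4% of all genes tested. Of these 6, *Arnt*, *Egln3*, *Car9* and *Vegfa* were lower and *Epas1* and *Egln1* higher in the *Cdkn2a*-deleted lines. The median log2 fold change over the 10 genes was −0.11, against −0.02 over all genes, with 3 positive and 7 negative values.

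*Hif1a* encodes the widely expressed alpha subunit. It was at 184, 168 and 159 CPM in p53-deleted lines 1, 2 and 3 and at 157, 180 and 168 CPM in *Cdkn2a*-deleted lines 1, 2 and 3. The lines of the genotypes were interleaved, with a p53-deleted line highest and a *Cdkn2a*-deleted line lowest. The log2 fold change (*Nf1*/*Cdkn2a* minus *Nf1*/*p53* dKO throughout) was −0.02, with a 95% interval of −0.33 to 0.29 and an adjusted P of 0.936 by edgeR. In the order of the 6 lines, each line's cultures overlapped those of the next. An antisense gene, *Gm15283*, shares 330 exon bases with *Hif1a* and had 176 counts over the 18 libraries.

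*Epas1* encodes HIF-2α, the alpha subunit first known from endothelium. Its levels were 8.89, 2.08 and 1.04 CPM in the p53-deleted lines and 12.8, 9.06 and 20.6 CPM in the *Cdkn2a*-deleted lines. All 3 *Cdkn2a*-deleted lines were higher, although line 2 of that genotype lay beside p53-deleted line 1, and the cultures of these 2 lines overlapped. Over cultures, the lowest, median and highest levels were 0.680, 1.91 and 10.2 CPM against 7.10, 12.7 and 22.0 CPM. The log2 fold change was 1.82 (SE 0.81, 95% interval −0.11 to 3.75, adjusted P = 0.247 by edgeR), so the difference did not pass. It ranged from 1.37 without p53-deleted line 3 to 3.18 without p53-deleted line 1.

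The balance between the alpha subunits followed from this. Per line, *Epas1* counts were 4.83%, 1.24% and 0.651% of the *Hif1a* counts in the p53-deleted lines and 8.17%, 5.04% and 12.3% in the *Cdkn2a*-deleted lines. The mean log2 ratio of *Epas1* to *Hif1a* counts was −5.99 ± 1.48 (SD, n = 3) against −3.65 ± 0.64 (SD, n = 3). The difference of 2.34 had an exact two-sided permutation P of 0.1, which is the smallest that 3 lines against 3 can give.

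*Arnt* encodes the beta subunit that both alpha subunits need. It was at 93.7, 79.8 and 81.6 CPM in the p53-deleted lines and at 49.5, 47.9 and 58.6 CPM in the *Cdkn2a*-deleted lines. Neither the lines nor the 9 cultures of each genotype overlapped. The level was 1.63-fold lower in the *Cdkn2a*-deleted lines, with a log2 fold change of −0.71 (SE 0.14) that missed the threshold (adjusted P = 0.0608 by edgeR) and ranged from −0.85 to −0.63 over 17 other settings, 6 of which passed.

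The hydroxylases differed in direction. *Egln1* encodes PHD2, the main hydroxylase of HIF-1α in most cells, and is itself a HIF target. Its levels were 57.4, 63.3 and 45.5 CPM in the p53-deleted lines and 86.5, 96.2 and 87.2 CPM in the *Cdkn2a*-deleted lines. Every *Cdkn2a*-deleted culture was above every p53-deleted culture. Its log2 fold change was 0.70 (SE 0.16, adjusted P = 0.0768 by edgeR), a 1.62-fold higher level that did not pass. Of 17 other settings 5 passed, the same as for *Arnt* except raw library totals. No fit with a line left out passed.

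*Egln3* encodes PHD3, a strongly hypoxia-inducible hydroxylase. It was at 20.2, 28.2 and 78.2 CPM in the p53-deleted lines and at 7.27, 16.2 and 4.13 CPM in the *Cdkn2a*-deleted lines. The genotypes did not overlap in lines or cultures, and each of the 6 lines stood apart from the next in the order, with p53-deleted line 3 far above the rest. Between genotypes the log2 fold change was −2.20 (SE 0.69, 95% interval −3.85 to −0.55, adjusted P = 0.133 by edgeR), the most negative of the 10 genes. Without p53-deleted line 3 it was −1.39 and without *Cdkn2a*-deleted line 2 it was −2.88.

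*Egln2* encodes PHD1, which is not known for induction by hypoxia. It was at 45.6, 53.3 and 48.5 CPM and at 50.8, 54.1 and 59.7 CPM, a narrow range in which neighboring lines overlapped throughout. A log2 fold change of 0.16 was fitted (SE 0.14, 95% interval −0.17 to 0.49, adjusted P = 0.531 by edgeR). *Vhl*, the substrate receptor of the ligase, was at 22.0, 20.5 and 28.6 CPM and at 20.1, 22.6 and 25.4 CPM. Line 3 was highest in each genotype, and the genotypes overlapped, with a log2 fold change of −0.06 (SE 0.20, 95% interval −0.53 to 0.41, adjusted P = 0.877 by edgeR).

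*Vegfa* encodes the vascular endothelial growth factor that drives vessel sprouting, and is a classical HIF target. Its levels were 172, 157 and 203 CPM in the p53-deleted lines and 70.5, 70.5 and 81.2 CPM in the *Cdkn2a*-deleted lines. The lowest p53-deleted culture, at 155 CPM, was well above the highest *Cdkn2a*-deleted culture, at 82.6 CPM. *Vegfa* was 2.40-fold lower in the *Cdkn2a*-deleted lines (log2 fold change −1.26, SE 0.15, 95% interval −1.62 to −0.90, adjusted P = 0.0272 by edgeR). The direction held in 17 of 17 other settings, between −1.40 and −1.15. The lowest adjusted P, 5.65e-68, was by DESeq2 with cultures as separate samples, which ignores the tumor they share. The highest, 0.124, was by edgeR without *Cdkn2a*-deleted line 1. Leaving out single lines, the call held without p53-deleted line 1 or line 3 and was lost without p53-deleted line 2 or any 1 of the 3 *Cdkn2a*-deleted lines.

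*Car9* encodes carbonic anhydrase IX, a cell-surface enzyme of pH control and a widely used marker of hypoxia. Its levels were 1.91, 1.00 and 3.89 CPM in the p53-deleted lines and 0.818, 0.635 and 0.860 CPM in the *Cdkn2a*-deleted lines. The lines did not overlap but the cultures did, and a culture held only 11 to 117 and 10 to 26 reads. The log2 fold change of −1.55 (SE 0.55, adjusted P = 0.169 by edgeR) did not pass, and was −0.91 without p53-deleted line 3. An antisense gene, *Gm12454*, shares 214 exon bases with *Car9* and had 135 counts over the 18 libraries. It was not stated whether the counting used strand, so reads of the 2 genes may not have been told apart.

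*Bnip3* encodes a mitochondrial receptor that brings mitochondria to autophagy under hypoxia. It was at 37.6, 29.4 and 90.3 CPM in the p53-deleted lines and at 33.9, 26.3 and 80.0 CPM in the *Cdkn2a*-deleted lines. In both genotypes line 3 was highest and line 2 lowest, and the 2 genotypes overlapped almost entirely. The log2 fold change was −0.17 (SE 0.57, 95% interval −1.52 to 1.19, adjusted P = 0.885 by edgeR). The line numbers are given within a genotype, and nothing in the labels links the third lines. An antisense gene, *Gm45507*, shares 504 exon bases with *Bnip3* in GENCODE M21 and is not among the genes of the count table. It was not stated whether the counting used strand, so reads of *Gm45507* may have been counted for *Bnip3*.

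**Figure D2:**
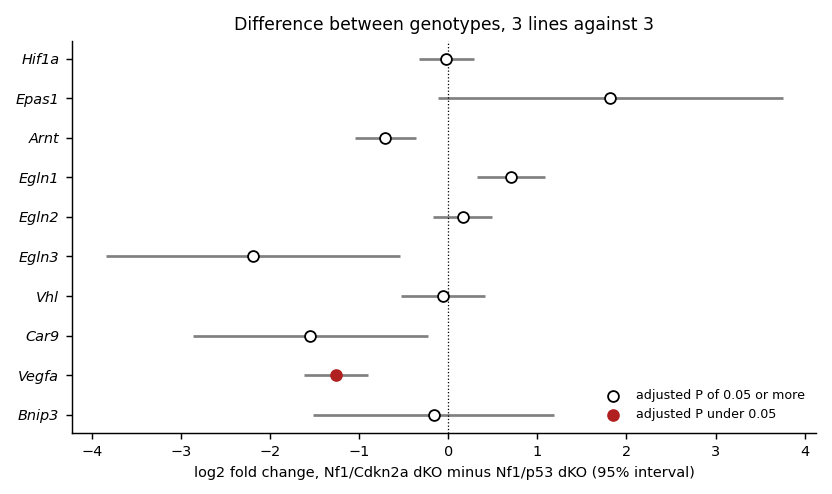
Log2 fold change (x axis, *Nf1*/*Cdkn2a* minus *Nf1*/*p53* dKO) of the 10 genes (y axis) with 95% intervals from edgeR on 3 lines per genotype; the filled point passed an adjusted P of 0.05. *Vegfa* at −1.26 passed, *Arnt* and *Egln1* had intervals of similar width that missed the threshold after adjustment, and *Epas1*, *Egln3*, *Car9* and *Bnip3* had wide intervals.

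With the 18 cultures as separate samples, DESeq2 called 6 of the 10 genes, the same 6 whose lines did not overlap, against 48.9% of 13110 genes tested. Cultures of 1 line share a tumor, but this test treats them as independent samples. Its spread mixes that between lines with that between cultures of a line, which may be technical.

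The lines of a genotype also differed from each other. With edgeR on the 18 cultures, 9 of the 10 genes differed among the p53-deleted lines, all but *Egln2*, against 73.2% of 14690 genes tested. Among the *Cdkn2a*-deleted lines 7 did, all but *Egln1*, *Egln2* and *Car9*, against 56.8%. The share of variance between lines was highest for *Bnip3*, at 99.7% and 97.8% in the p53-deleted and *Cdkn2a*-deleted lines, and for *Egln3*, at 98.8% and 96.5%. The medians over 13110 genes were 87.5% and 66.3%. On the log2 scale the SD between the p53-deleted lines was 1.60 for *Epas1*, 1.01 for *Egln3*, 1.00 for *Car9* and 0.84 for *Bnip3*, but 0.11 for *Hif1a* and *Egln2* and 0.13 for *Arnt*. *Epas1*, hydroxylase *Egln3* and target *Bnip3* thus varied widely from line to line. The differences between lines were small in size for *Hif1a*, *Arnt* and *Egln2*, although *Hif1a* and *Arnt* passed the test between lines in both genotypes.

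Line 3 of the p53-deleted lines had the highest level of the 6 lines for *Egln3*, *Vhl*, *Car9*, *Vegfa* and *Bnip3*, 5 of the 10 genes. It had the lowest level for *Epas1* and *Egln1*. The same line was highest for 25.9% of all genes tested for 10 of 20 glycolytic HIF targets and for 5 of 10 genes of the other HIF machinery, a comparison chosen after the values were seen. It was highest for 8 of 33 other HIF targets (24.2%), where line 2 of its genotype was highest for 11, for 2 of 8 genes of the VEGF list and for 1 of 7 mitophagy genes. Its monocarboxylate exporter *Slc16a3* was at 205 CPM, well above lines 1 and 2 of its genotype at 51.5 and 47.5 CPM.

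**Figure D3:**
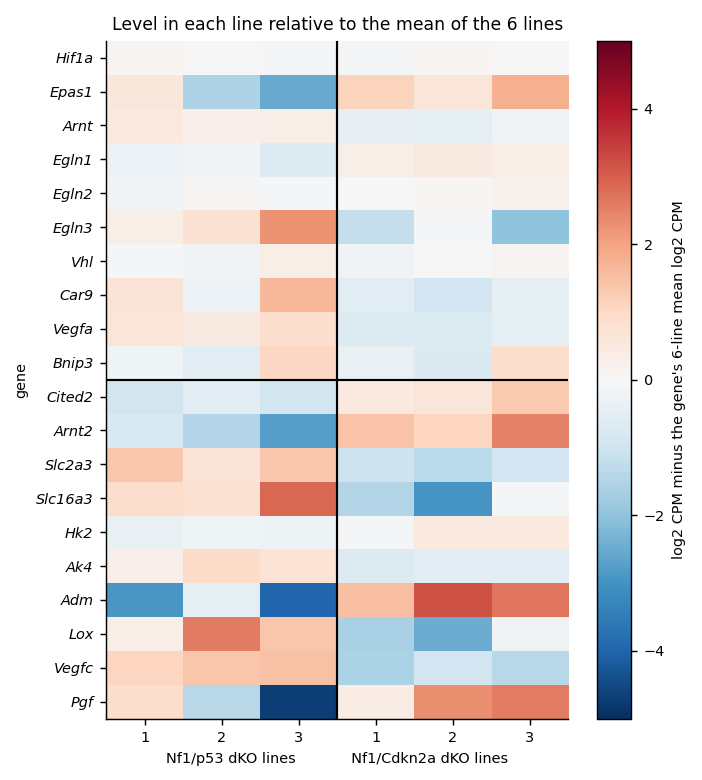
Log2 CPM of each line minus the gene's mean over the 6 lines (color, red above and blue below) for the 10 genes (above the horizontal line) and 10 named genes of the wider pathway (below it), with lines 1 to 3 of each genotype as columns. Line 3 of the p53-deleted lines is the reddest column for *Egln3*, *Car9* and *Slc16a3*; the colors span −4.72 to 3.20.

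Other parts of the machinery were looked at as a list of 11 genes, of which 10 were tested. One gene passed, the co-activator competitor *Cited2*, which takes the binding site of HIF on CBP and p300 and is itself induced by HIF. It was at 133, 169 and 136 CPM in the p53-deleted lines and at 351, 385 and 635 CPM in the *Cdkn2a*-deleted lines. It rose by 1.65 on the log2 scale (SE 0.26, adjusted P = 0.0457 by edgeR), and the call was lost with any 1 line left out. *Arnt2*, a close relative of *Arnt* that can also pair with the alpha subunits, had the opposite order to *Arnt*, at 1.12 to 4.43 CPM against 15.8 to 42.0 CPM. Its log2 fold change of 3.23 (SE 0.62, adjusted P = 0.0546 by edgeR) was the highest of the list and did not pass, and the asparagine hydroxylase *Hif1an* was level (log2 fold change −0.0027). The lowest value was that of *P4htm*, a membrane-bound prolyl hydroxylase, at −0.46 (adjusted P = 0.599 by edgeR) and under 1 CPM in every line. The list had 4 positive and 6 negative values with a median of −0.10, and these counts were 5 and 5 with DESeq2's size factors and 3 and 7 with upper-quartile scaling or raw library totals.

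Of 20 glycolytic HIF targets, 1 passed. The neuronal-type glucose transporter *Slc2a3* was at 11.3, 6.86 and 11.1 CPM in the p53-deleted lines and at 2.13, 1.75 and 2.24 CPM in the *Cdkn2a*-deleted lines, and fell by 2.26 on the log2 scale (SE 0.31, adjusted P = 0.0361 by edgeR), a call that was lost with any 1 line left out. The broadly used transporter *Slc2a1* was higher in the *Cdkn2a*-deleted lines without passing (0.54, adjusted P = 0.163; named after its values were seen). The lowest value was −2.89 for *Slc16a3*, at 10.2, 3.65 and 27.0 CPM in the *Cdkn2a*-deleted lines (adjusted P = 0.131 by edgeR), and it was −1.86 without p53-deleted line 3. The highest was 0.59 for the hexokinase *Hk2* (adjusted P = 0.131 by edgeR). The list had 8 positive and 12 negative values with a median of −0.13. With raw library totals, where the median of all genes itself moved to −0.16, there were 4 positive and 16 negative values and the median was −0.27.

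Of 34 other HIF targets, 33 were tested and 1 passed, *Ak4*, a mitochondrial adenylate kinase, at 27.6, 44.0 and 37.7 CPM against 14.6, 15.8 and 15.6 CPM. It fell by 1.25 on the log2 scale (SE 0.21, adjusted P = 0.0465 by edgeR), and of the 6 fits that left out a line it passed in the 1 without p53-deleted line 1. *Adm*, the vasodilator peptide adrenomedullin, had the highest value, 4.33 (SE 1.01, adjusted P = 0.0799 by edgeR), at 3.67, 19.8 and 1.76 CPM against 77.7, 254 and 176 CPM. Its level was thus higher in every *Cdkn2a*-deleted line, the opposite order to *Vegfa*. *Lox*, which crosslinks collagen, had the lowest value, −2.84 (SE 0.79, adjusted P = 0.109 by edgeR), at 314, 1566 and 684 CPM against 84.6, 45.7 and 227 CPM. The list had 12 positive and 21 negative values and a median of −0.13. Values of the list thus lay on both sides of 0.

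In the VEGF family, 8 of 9 other ligands and receptors were tested and 1 passed. *Vegfc*, the ligand of lymphatic growth, was at 18.2, 22.9 and 23.9 CPM in the p53-deleted lines and at 2.87, 4.47 and 3.35 CPM in the *Cdkn2a*-deleted lines. It fell by 2.60 on the log2 scale (SE 0.26, adjusted P = 0.0198 by edgeR) and passed without p53-deleted line 1 or line 3, but not without any 1 of the other lines. *Pgf*, placental growth factor, had the highest value, 2.43 (SE 1.24, adjusted P = 0.300 by edgeR), at 42.9, 8.95 and 0.886 CPM against 30.0, 119 and 136 CPM, so that the genotypes overlapped. It was 1.88 without p53-deleted line 3 and 4.27 without p53-deleted line 1. The ligands *Vegfb* and *Vegfd* had values of 0.03 and 0.17 that did not pass (adjusted P = 0.968 and 0.866 by edgeR). The list had 7 positive values and 1 negative one, with a median of 0.55, and with raw library totals or upper-quartile scaling 6 and 2.

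Of 7 further mitophagy genes, relatives of *Bnip3* in function, 0 passed with edgeR, and 0 had an unadjusted P under 0.05. DESeq2 on the 18 cultures called 2 of the 7, against 48.9% of 13110 genes tested. The highest value was 0.45 for *Fkbp8* (adjusted P = 0.236), and *Bcl2l13* was at −0.36 (adjusted P = 0.281), both by edgeR; *Bcl2l13* was at −0.24 without *Cdkn2a*-deleted line 3. Among the cell type markers, 1 passed, the endothelial receptor *Tek*, at 0.412 to 1.08 CPM in the p53-deleted lines and 0.0642 to 0.0782 CPM in the *Cdkn2a*-deleted lines (log2 fold change −3.23, adjusted P = 0.0465 by edgeR), a call lost with any 1 line left out. Its list's highest value was 1.61 for *Cdh5* (adjusted P = 0.221 by edgeR), and 0.97 without *Cdkn2a*-deleted line 2. The mesenchymal list ran from −0.95 for *Fn1*, which was 0.0081 without p53-deleted line 2, to 1.40 for *Prrx1*, with *Vim* at 0.75 and a lowest adjusted P of 0.0964 by edgeR. The leukocyte list ran from −0.76 for *Csf1r* (−1.67 to −0.42 with single lines left out) to 1.06 for *Ptprc* (0.67 to 1.46), with *Cd68* at 0.92 and a lowest adjusted P of 0.243 by edgeR. In the Schwann lineage list *Mbp* was at −4.02 (adjusted P = 0.168 by edgeR) but at −1.30 without p53-deleted line 2, and *Cdh19*, which was lowest, was at 0.425, 3.90 and 0.138 CPM in the p53-deleted lines and at 0 reads in every *Cdkn2a*-deleted culture.

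**Figure D4:**
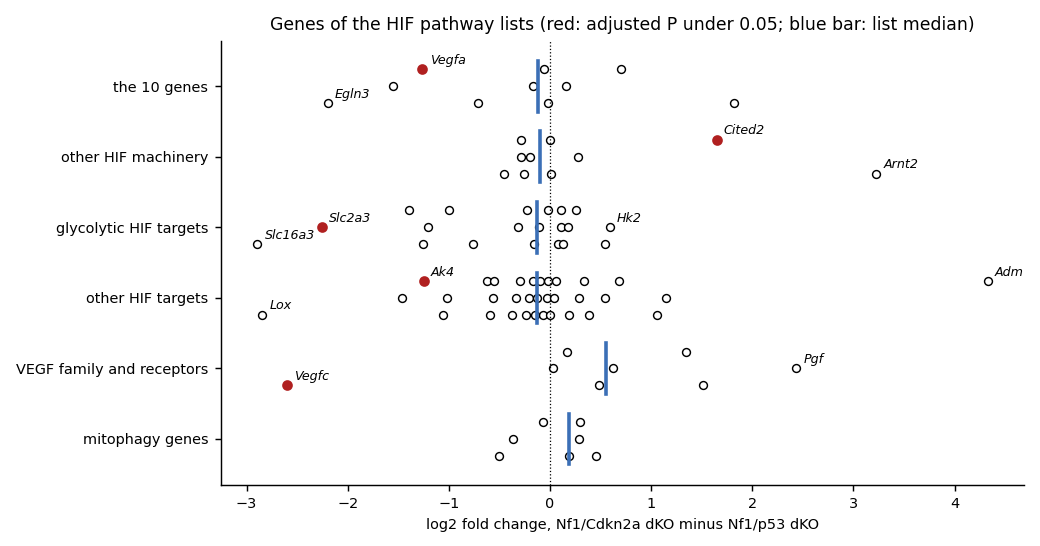
Log2 fold change (x axis, *Nf1*/*Cdkn2a* minus *Nf1*/*p53* dKO) of every tested gene in the 10 genes and in 5 lists of the wider pathway (y axis), with genes past an adjusted P of 0.05 in red and the median of each list as a blue bar. The medians lie between −0.13 and 0.55, and 1 gene is red in each list but the mitophagy one.

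Genes near the 10 genes on their chromosomes were then examined, a step chosen after the values were seen. *Arnt* lies at chr3:95434388-95497240 of GRCm38. Within 500 kb of it, 45 genes were tested, of which 38 had negative and 7 positive values, with a median of −0.69, close to the −0.71 of *Arnt* itself. The lines did not overlap for 25 of the 45, and in all 25 the *Cdkn2a*-deleted lines were lower. Over all genes tested, 16.6% were without overlap and lower. Against the p53-deleted mean, the median of the 45 genes was −0.72, −0.78 and −0.62 in *Cdkn2a*-deleted lines 1, 2 and 3, and 0.03, −0.17 and 0.13 in the p53-deleted lines, all on the log2 scale. The median stayed between −0.82 and −0.59 over the 17 other settings, and was −0.42 within 200 kb and −0.62 within 1000 kb. *Setdb1*, a histone methyltransferase gene, and *Prpf3*, a splicing factor gene, passed there (−1.09 and −1.17, adjusted P = 0.0287 and 0.0272 by edgeR).

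Around *Egln1* (chr8:124908587-124949324), 12 of 14 neighbors had positive values, with a median of 0.57, and 4 were without overlap and higher, as were 14.8% of all genes tested. Around *Vegfa* (chr17:46016993-46032369), 18 of 25 had negative values, with a median of −0.35. Over all genes tested, 51.8% had a lower fitted value. The lines did not overlap for 15 of the 25, of which 12 were lower and 3 higher. Over all genes tested, 16.6% were without overlap and lower and 14.8% without overlap and higher. *Vegfa* itself, at −1.26, was farther from 0 than the median of its neighbors. Around *Car9*, *Bnip3*, *Hif1a*, *Epas1* and *Egln3* the neighbors did not follow the gene. Of the 25 neighbors of *Car9*, 17 had positive values, with a median of 0.33 against −1.55 for *Car9*, and of the 10 without overlap 7 were higher and 3 lower. The 6 neighbors of *Bnip3* had a median of 0.33 against −0.17, and the 4 of *Hif1a*, all negative, −0.66 against −0.02. Neighbors of *Epas1*, *Egln2*, *Egln3* and *Vhl*, 3 to 23 genes each, had medians between −0.01 and 0.10. The genes themselves were at 1.82 for *Epas1*, 0.16 for *Egln2*, −2.20 for *Egln3* and −0.06 for *Vhl*.

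**Figure D5:**
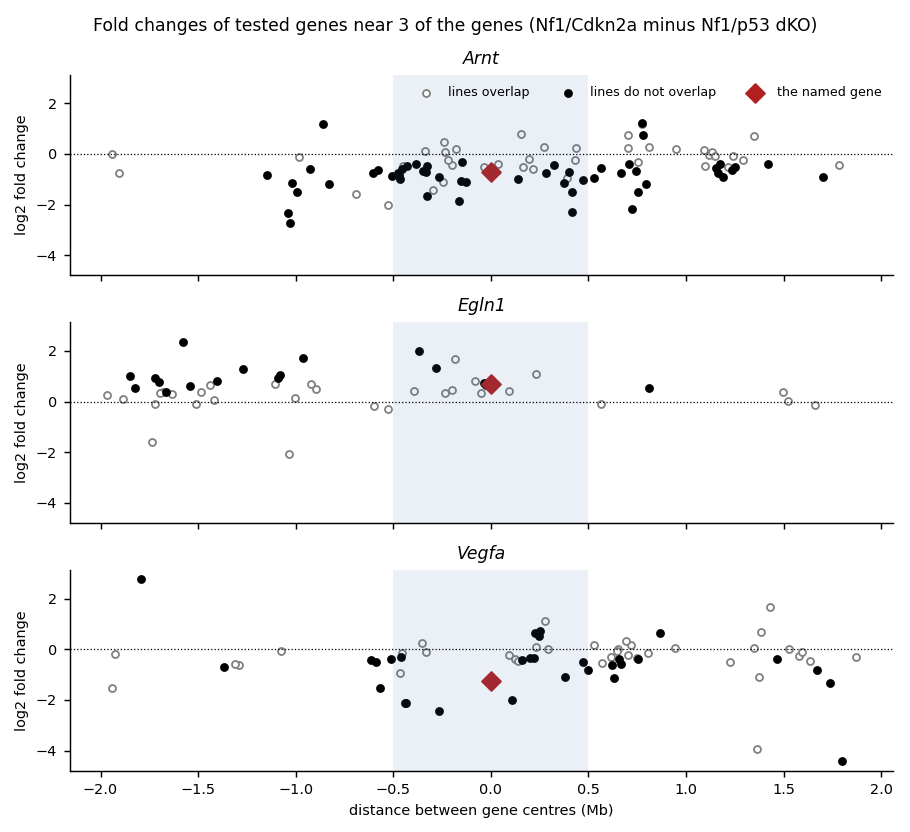
Log2 fold change (y axis, *Nf1*/*Cdkn2a* minus *Nf1*/*p53* dKO) of tested genes against the distance of their centers from that of *Arnt*, *Egln1* or *Vegfa* in Mb (x axis). Filled circles are genes whose lines do not overlap between genotypes, the diamond is the named gene and the shaded band is 500 kb to either side; within the band around *Arnt* every filled circle lies below 0.

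The genes most like 4 of the genes in pattern were taken as those with the highest Pearson correlation of log2 CPM over the 18 cultures, among 13110 genes. Cultures of a line share its tumor, and the genotype difference is part of each value, so these are descriptions. For *Vegfa* they were *Setdb1* (r = 0.990), *Hoxa11* (0.989, uncertain because of its antisense partner *Hoxa11os*) and *Fgfr2* (0.989). For *Epas1* they included *Pttg1ip* (0.979) and *Dlg3* (0.977), and for *Car9* *Odf2l* (0.925), *Sh3glb1* (0.914) and *Cntrob* (0.910). For *Hif1a*, which varied little, the highest was *Fdps* (0.825).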

How the data were processed

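The 18 libraries were prepared, sequenced and analysed by Novogene, and the submitters' processing notes name STAR 2.5, CASAVA and DESeq2 1.14.1 with GRCm38 (mm10); the counting tool and annotation are not given in the sources used here. The deposited values are whole-number read counts for each gene in each library, not normalized by the authors. Samples were grouped by title into 2 genotypes of 3 lines and 3 cultures. Nothing states that libraries carried molecular identifiers. The p-values of the main genotype comparison measure the spread between these lines only. Genotype tests with cultures as separate samples mix the spread between lines with that between cultures of a line. The limma-voom setting has the line as a random effect. Tests between the lines of a genotype measure the spread between cultures of a line. The 10 genes and all lists were chosen with earlier results of these data known.

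The 3 cultures of each line were summed, then filtered with filterByExpr (minimum count 10, minimum total 15), scaled with TMM and compared with edgeR 4.0.16 (quasi-likelihood, Benjamini-Hochberg, threshold 0.05) in R 4.3.3. Differences between lines were tested on the cultures. Other settings used limma 3.58.1, DESeq2 1.42.0, other scalings, other filters, replicate numbers as blocks and lines left out. Replicates of a line differed by more than counting noise (chi-square per degree of freedom 3.50 to 27.1 over 18 pairs). Levels per kb used exon lengths of GENCODE M21. Named were all 10 genes, the called, highest and lowest gene of each list (with none called also those of lowest P), 3 genes most alike and the targeted genes. Some single-gene results under this rule are not reported here. The steps were tested on simulated data. Promoter sequences are RefSeq's, on GRCm38.p6; 11 windows covered 9 of the 10 genes.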

Additional observations from a re-analysis of the deposited data

How the results depend on the processing

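With the cultures as separate samples, more was called. Of the 10 genes, 6 passed with edgeR or DESeq2 on 18 cultures and with the culture number as a replicate block, 5 with limma-voom and the line as a random effect, 4 with DESeq2 on the lines and 2 with raw library totals. Over all genes the counts in that order were 6096, 6409, 5681 and 2173 of 13110 tested, 2171 of 15116 and 423 of 15207. For DESeq2 on 18 cultures the share over all genes was 48.9%. Other HIF machinery, a list of 11 genes, had 6, 6, 6, 2 and 2 under the first 5 of these settings and 2 without a filter. The 20 glycolytic targets had 10, 10, 10, 6 and 4, and the 34 other targets 12, 12, 10, 7 and 5. The 9 genes of the VEGF list had 4, 4, 3 and 3 under the first 4, and the 7 mitophagy genes had 2, 2 and 2 under the first 3. With the line number as a replicate block 0 genes passed in every list and over all genes, where 2740 had an unadjusted P under 0.05 with edgeR. Same-numbered lines correlated at −0.10, −0.13 and −0.08 in their deviations, and other pairs of lines at 0.02 to 0.08. Same-numbered cultures had a median of 0.00, as had other pairs of cultures. No positive pairing by number was thus seen, and a step shared by same-numbered samples that touched only some genes was not tested. With each line left out, 0 to 1 of the 10 genes, 0 to 172 genes over all, 0 of the machinery and glycolytic lists and 0 to 1 of the other targets and of the VEGF family passed. With each culture left out, 4 to 6 of the 10 genes differed among the *Nf1*/*Cdkn2a* dKO lines, with 4 where culture 2 was left out. With all cultures kept, 56.8% of 14690 genes tested differed among these lines. The share over all genes with a culture left out is not reported here. The small values of *Hif1a* (−0.067 to 0.037), *Vhl* (−0.14 to 0.10) and *Bnip3* (−0.80 to 0.49) changed sign with single lines left out, and the other 7 genes kept their direction in all 17 settings. The cause was not tested for any of these. Depth limits *Car9*, with as few as 10 reads in a culture, and *Epas1* in *Nf1*/*p53* dKO line 3, with 75 reads over 3 cultures.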
